A study of Mus musculus with 12 samples.

Results

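The 49 genes described here encode the machinery that brings nascent secretory and membrane proteins into the endoplasmic reticulum (ER) and carries them on to the Golgi. They were chosen by symbol from a list of genes of signal recognition, translocation, N-glycosylation and the COPI and COPII coats, and all 49 were found among the 54532 genes of the count table. All 49 also passed the filter on low counts, which left 13571 genes to test. The data are RNA-seq counts of ribosome-bound mRNA from cultured mouse keratinocytes that expressed, under doxycycline at 2 µg/mL, a fusion of residues 1 to 584 of DP (desmoplakin, a desmosomal plaque protein) to the biotin ligase BirA. All cells had been moved to calcium-containing medium, so that they differentiated, and all received a biotin pulse of 16 h. The genotype is given as wild type with the DP-BirA(1-584) transgene in all libraries. Translating ribosomes were taken from sucrose gradients and passed over neutravidin. RNA that was bound is the cortical translatome, and RNA in the depleted remainder is what the study calls the total translatome. The 4 groups are total and cortical RNA, each of unwounded and of wounded cells, with 3 libraries in each. The libraries are labelled as biological replicates, but the labels do not say whether they came from separate cultures or cell lines, so the p-values measure the spread between these libraries.

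Signal sequences emerging from the ribosome are bound by the signal recognition particle (SRP), which docks at its receptor on the ER and hands the ribosome to the Sec61 channel. Beside the channel sit the TRAP complex, the signal peptidase that cuts off the signal sequence, and the oligosaccharyltransferase that adds N-linked glycans. Lectin chaperones then hold the glycoprotein while it folds. COPII coats bud cargo out of the ER, COPI coats return it from the Golgi, and p24 proteins (Tmed), KDEL receptors and Lman1 select the cargo. In keratinocytes this pathway delivers adhesion receptors, desmosomal cadherins and secreted matrix.

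Levels per unit of gene length were compared with the FPKM values of the authors (fragments scaled to gene length and library size). Averaged over the 12 libraries, Srp14 (an Alu-domain subunit of SRP) was the most abundant of the 49 at 131 FPKM, followed by the Sec61 subunits Sec61g at 130.1 FPKM and Sec61b at 104 FPKM. The lowest 3 were the COPII genes Sec23b at 2.14 FPKM, Sec24a at 1.76 FPKM and Sec24d at 1.05 FPKM. Subunits of 1 complex spanned a wide range of levels. In unwounded total RNA the pore-forming subunit Sec61a1 stood at 6.40 ± 1.28 FPKM (SD, n = 3), against 115 ± 17.0 for Sec61b and 133 ± 36.1 for Sec61g. Of the Sec24 paralogs, the cargo-binding subunits of COPII, the order of mean FPKM was Sec24c, Sec24b, Sec24a, Sec24d in all 4 groups. In unwounded total RNA these were 8.05 ± 0.802, 6.24 ± 0.296, 1.64 ± 0.107 and 0.797 ± 0.126 FPKM (SD, n = 3). The Sec24c and Sec24b libraries overlapped only in wounded cortical RNA, at 10.5 ± 1.81 and 8.71 ± 2.08 FPKM. Kdelr1 was above Kdelr2 in mean FPKM in every group, with 74.1 ± 4.75 and 54.4 ± 2.32 in unwounded total RNA. FPKM moves with the gene length that the authors used, which was 2464 bases for Sec61g, 1271 for Sec61b and 6732 for Sec61a1, all longer than their coding sequences.

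**Figure D1:**
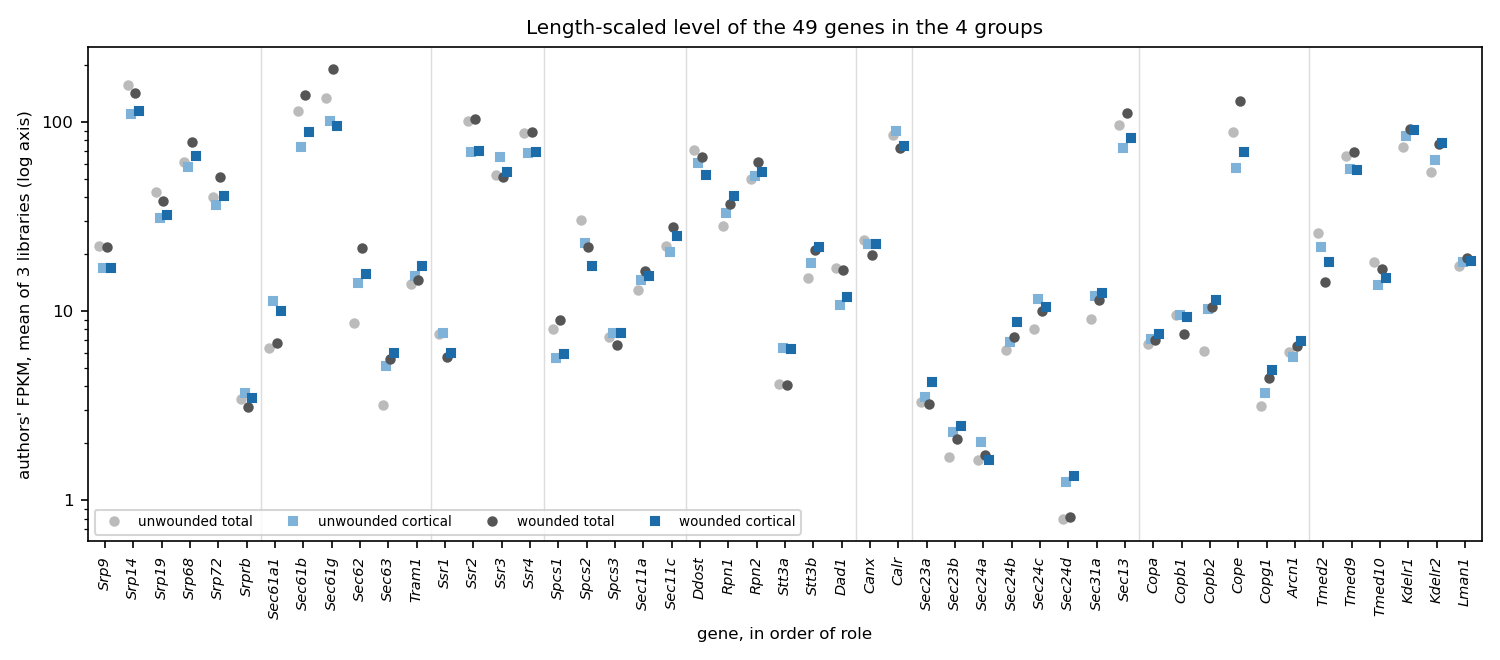
Mean FPKM of the authors (log axis) for each of the 49 genes in the 4 groups of 3 libraries, in order of role, with vertical lines between roles. Small subunits such as Srp14, Sec61b and Sec61g lie near 100 FPKM, whereas Sec24d lies near 1; the cortical squares lie below the total circles for Srp14, Sec61b, Ssr2 and Cope and above them for Sec61a1 and Stt3a.

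Total counts per library ran from 8980013 to 23457548, and the 49 genes took 0.526% to 0.592% of them. The lowest count of any of the 49 genes in any library was 63. Wounded total replicate 1 stood apart: 13117 genes had a count there, against 14393 to 16867 in the other 11 libraries, and its rank correlation with the other wounded total libraries was 0.962 and 0.966, the lowest within any group. For 40 of the 49 genes it was the wounded total library farthest from its group's median. Its TMM scaling factor was 1.05, inside the 1.05 to 1.10 of the cortical libraries, whereas wounded total replicates 2 and 3 had 0.843 and 0.831. The counts of the 49 genes called in each contrast are therefore given with and without this library. Values and calls of single genes are from all 12 libraries unless stated otherwise. Whether this library differs in fraction, handling or RNA was not tested. The median coefficient of variation of the 49 genes was 12.2% in wounded total and 6.66% to 8.05% in the other groups. All 9 keratinocyte markers were expressed, and their summed CPM was 9896 to 10964 in unwounded total, 14611 to 14680 in unwounded cortical, 16615 to 19103 in wounded total and 20008 to 20321 in wounded cortical RNA. Markers of other cells summed to at most 6.47 CPM for fibroblasts (7 markers, Dcn at 0), 10.4 for melanocytes (5 markers, Tyrp1 at 0), 0.285 for immune cells (5 markers, Cd207 and Itgam at 0) and 1.87 for endothelium (3 markers, Cdh5 at 0). The part that the rise of keratinocyte markers has in the results below was not tested, and in bulk RNA fewer cells that make a transcript and less of it per cell cannot be told apart.

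In unwounded cells, subunits of the same complex lay on opposite sides of the cortical-to-total comparison. Cortical RNA held more Sec61a1, Copb2, Sec62, Sec63, Stt3a and Sec24c, and less Dad1, Cope, Sec61b, Ssr2, Srp14, Srp19, Sec13, Spcs2, Tmed10 and Srp9. That is 16 of 49 genes at an adjusted p under 0.05 (edgeR quasi-likelihood test, Benjamini-Hochberg over all 13571 genes), 6 higher and 10 lower, where 14.2% of all genes tested passed, 6.62% higher and 7.59% lower. The median log2 fold change of the 49 was 0.04, beside 0.00 for all genes tested. In wounded cells the same contrast gave 10 genes, 2 higher (Stt3a, Sec61a1) and 8 lower (Sec61g, Cope, Sec61b, Ssr2, Dad1, Sec13, Srp9, Ddost), with 15.7% of all genes passing, 7.62% higher and 8.03% lower. The members' median there was 0.03, beside 0.04 for all genes. Of the 10 genes lower in unwounded cells, 6 (60%) were also lower in wounded cells, where they made up 75% of the 8. The 2 genes higher in wounded cells were both among the 6 of unwounded cells. The same overlap over all genes was not computed, so these shares are a description of the members alone. Without wounded total replicate 1 the counts were 22 genes (8 higher, 14 lower) in unwounded cells and 24 (9 higher, 15 lower) in wounded cells. Of all genes, 22.4% (10.1% higher, 12.3% lower) and 24.7% (12.1% higher, 12.6% lower) passed then. The count in unwounded cells fell to 8 without unwounded total replicate 2 (6.69% of all genes) and to 10 without unwounded cortical replicate 2 (9.21%) or 3 (8.64%). In wounded cells it was 4 without wounded total replicate 2 (7.66% of all genes) and 5 without wounded cortical replicate 2 (8.59%). Scaling by library size alone, which shifts the median of all genes by 0.187 in unwounded and 0.211 in wounded cells, gave 11 higher and 5 lower (11.7% and 3.46% of all genes), and 5 higher and 4 lower (16.2% and 3.83% of all genes), and turned the sign of no gene called by the main test. Groups of 3 libraries did not overlap for 32 of the 49 genes in unwounded cells (36.2% of all genes, 17.1% higher and 19.1% lower) and for 16 in wounded cells (29.2% of all genes, 16.2% higher and 12.9% lower).

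On wounding, Sec62, Sec63, Copb2, Cope, Kdelr2, Stt3b, Rpn1, Srp72 and Srp68 rose and Tmed2, Spcs2 and Ssr1 fell in total RNA, which is 12 of 49 genes where 15.6% of all genes passed, 8.39% higher and 7.2% lower. The median of the 49 was 0.05, beside -0.03 for all genes. This contrast shares its unwounded total libraries with the unwounded cortical-to-total contrast, and its wounded total libraries with the wounded one. Wounding in cortical RNA compares none of the same libraries, but all 12 libraries were fitted together and share 1 estimate of the spread. In cortical RNA wounding changed 0 of the 49 genes at the same threshold, where 2.48% of all genes passed, 1.6% higher and 0.884% lower. There, 14 of the 49 had an unadjusted p under 0.05 in the edgeR test, where 17.3% of all genes did. DESeq2 called 1 of the 49 (Spcs2) and 5.42% of all genes, and a fit on the 6 cortical libraries alone called 11 of the 49 and 11.3% of all genes (6.27% higher, 5.02% lower). The cortical log2 fold changes ran from -0.37 (Spcs2) to 0.43 (Copg1), with 36 above 0 and 13 below, where 51.7% of all genes were above 0. Without wounded total replicate 1, which is in neither group of this contrast, 14073 genes were tested and 7 of the 49 passed in cortical RNA, where 9.07% of all genes did (5.47% higher, 3.6% lower): Copg1, Rpn1, Stt3b, Cope and Kdelr2 higher, Spcs2 and Ssr1 lower. In total RNA 22 passed without that library (16 higher, 6 lower, where 24.9% of all genes passed, 13.4% higher and 11.5% lower), against 6 without wounded total replicate 2 (10.2% of all genes) and 7 without unwounded total replicate 1 (7.99%). The 5 genes that passed in total RNA under all 20 alternatives were Sec62, Sec63, Copb2, Kdelr2 and Spcs2.

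**Figure D2:**
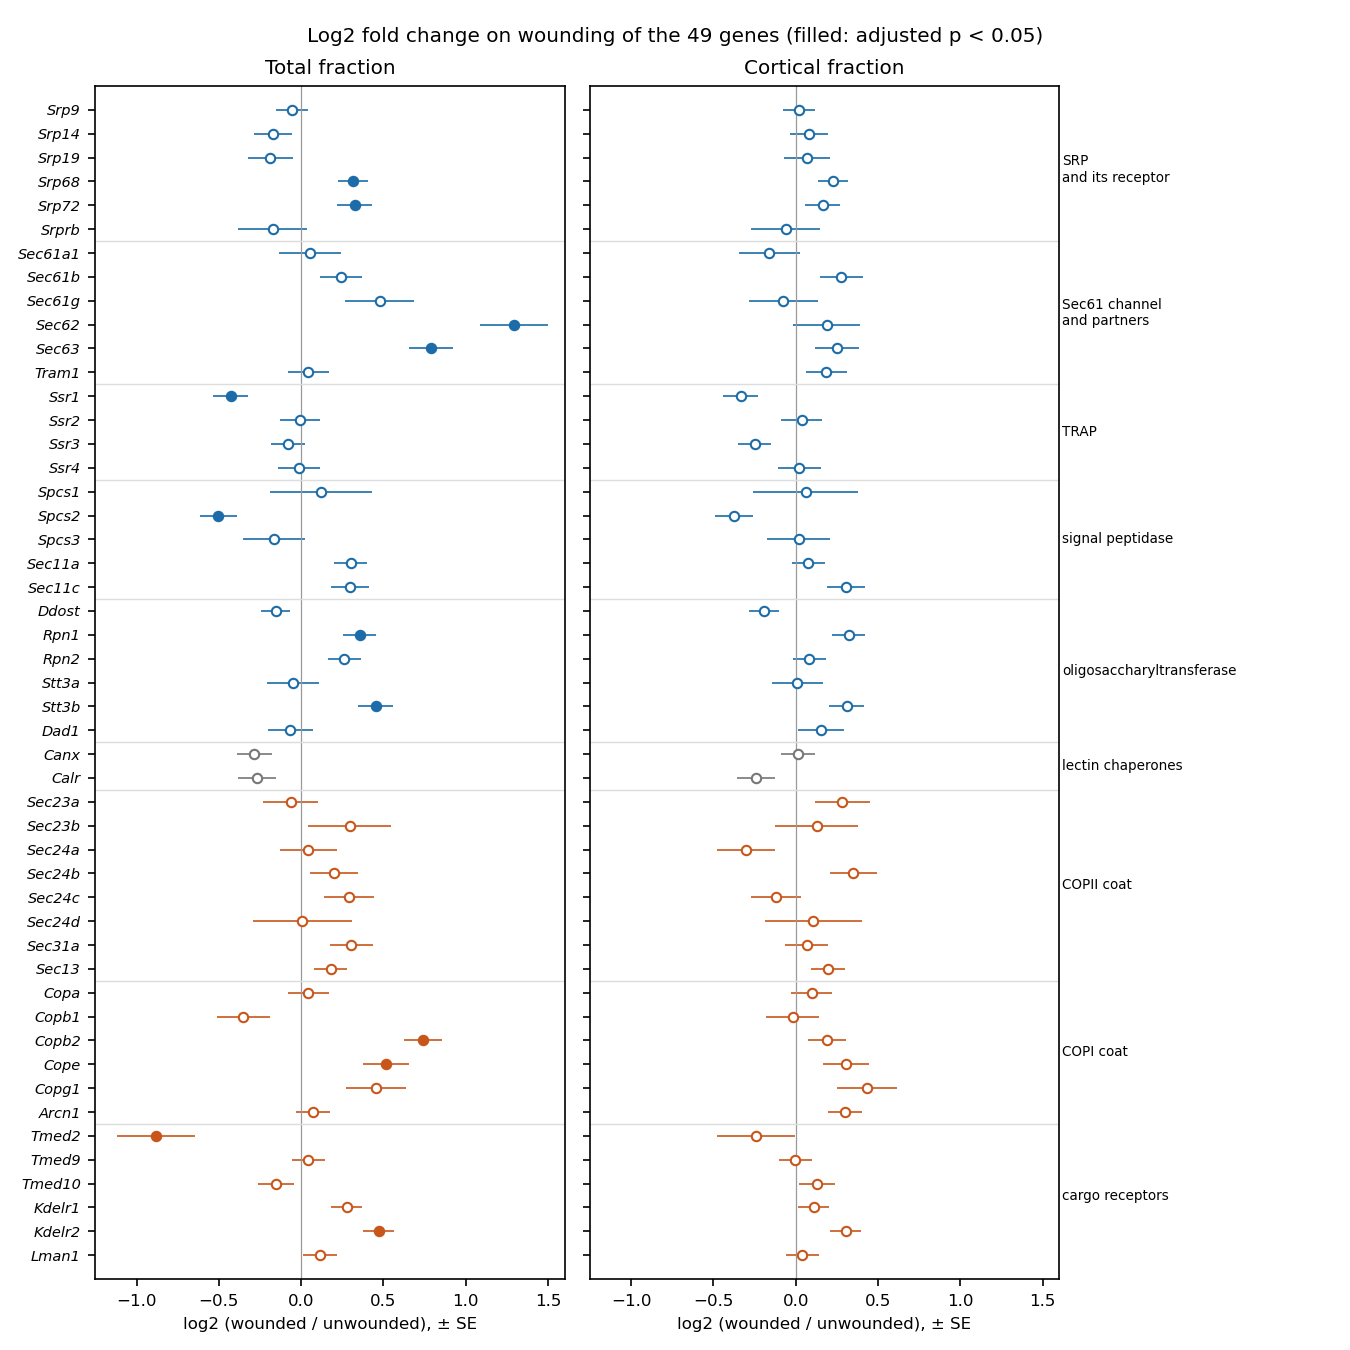
Log2 fold change on wounding (x axis, ± SE) of the 49 genes in total RNA (left) and cortical RNA (right), ordered by role on the y axis; filled points have an adjusted p under 0.05. Filled points appear in total RNA alone, with Sec62 at 1.29 and Tmed2 at -0.88 as the extremes.

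The SRP genes differed by subunit. Srp9 and Srp14, the small pair that slows elongation, and Srp19, which helps to assemble the particle on its RNA, were lower in cortical RNA of unwounded cells. Srp14 stood at 192, 214 and 166 CPM (counts relative to the TMM-adjusted library size) in unwounded total and at 143, 118 and 135 CPM in unwounded cortical libraries, so the groups did not overlap. The log2 fold change was -0.53 ± 0.12 (SE, adjusted p = 0.00573), with -0.47 ± 0.14 for Srp19 (adjusted p = 0.0323) and -0.41 ± 0.10 for Srp9 (adjusted p = 0.00967). The call of Srp14 held in 18 of 20 alternatives and was lost (-0.25) when a trend on gene length was removed. In wounded cells the cortical difference passed for Srp9 alone (-0.34 ± 0.10, adjusted p = 0.0279) with all libraries, with -0.28 for Srp14 and -0.21 for Srp19. Without wounded total replicate 1, Srp14, Srp68 and Srp72 were also lower there. Srp68 and Srp72, the large subunits that bind each other on the SRP RNA, gave -0.13 and -0.15 in unwounded cells. Both rose on wounding in total RNA, by 0.31 ± 0.09 (Srp68, adjusted p = 0.0289) and 0.33 ± 0.11 (Srp72, adjusted p = 0.0494). Srp72 stood at 226, 243 and 229 CPM before and 247, 313 and 315 CPM after wounding. Its call is close to the threshold and held in 5 of 20 alternatives, and that of Srp68 in 12 of 20. Srprb, the membrane anchor of the SRP receptor, passed in no contrast and stood between 10.7 and 19.4 CPM in all 12 libraries.

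The Sec61 channel showed the widest split within a complex. Sec61a1 encodes the pore, and Sec61b and Sec61g encode its small tail-anchored partners. The coding sequences of the small pair are shown because their length sets them apart from Sec61a1, whose coding sequence without the stop codon has 1428 bases. They are from GENCODE M21, with the start and stop codons in capitals and all other bases in lower case.
Sec61b: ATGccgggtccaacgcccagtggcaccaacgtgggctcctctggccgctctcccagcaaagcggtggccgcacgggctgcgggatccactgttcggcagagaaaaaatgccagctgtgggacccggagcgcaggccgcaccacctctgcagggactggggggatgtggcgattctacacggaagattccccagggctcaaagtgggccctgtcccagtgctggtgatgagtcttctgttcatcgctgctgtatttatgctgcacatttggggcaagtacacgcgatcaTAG
Sec61g: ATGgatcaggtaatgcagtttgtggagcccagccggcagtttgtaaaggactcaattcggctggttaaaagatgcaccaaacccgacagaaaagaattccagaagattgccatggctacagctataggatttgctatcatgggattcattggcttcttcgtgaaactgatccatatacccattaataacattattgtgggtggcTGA
Sec61b has 96 codons before the stop and lies at chr4:47474658-47483242 on the plus strand of mm10. Sec61g has 68 codons and lies at chr11:16500530-16508484 on the minus strand, and Sec61a1 lies at chr6:88503579-88518905, also on the minus strand.

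Sec61a1 was at 53.0, 36.0 and 42.5 CPM in unwounded total and at 79.3, 69.1 and 80.4 CPM in unwounded cortical libraries. Sec61b went the other way, from 142, 174 and 130 CPM to 103, 90.0 and 90.4 CPM. Neither pair of groups overlapped. The log2 fold changes were 0.80 ± 0.19 for Sec61a1 (adjusted p = 0.00886) and -0.65 ± 0.13 for Sec61b (adjusted p = 0.0035). Sec61g, at 264, 440 and 301 against 250, 255 and 250 CPM, gave -0.41 ± 0.21 and did not pass (adjusted p = 0.231). Without wounded total replicate 1, a library outside this contrast, it gave -0.42 and passed (adjusted p = 0.0202). After wounding, Sec61g was at 288, 499 and 611 CPM in total and 261, 223 and 233 CPM in cortical RNA, a log2 fold change of -0.96 ± 0.21 (adjusted p = 0.00645). The groups did not overlap, but replicate 1 of wounded total lay far below the other two, and without it the value was -1.22. Sec61b was again lower in cortical RNA of wounded cells (-0.62 ± 0.13, adjusted p = 0.00497) and Sec61a1 higher (0.59 ± 0.19, adjusted p = 0.0429). The last call was lost in 13 of 20 alternatives: wounded total replicate 1 had 63.6 CPM of Sec61a1, inside the 63.0 to 71.0 CPM of the cortical libraries, while replicates 2 and 3 had 38.1 and 34.7. Wounding itself gave 0.05 for Sec61a1, 0.24 for Sec61b and 0.48 for Sec61g in total RNA. In cortical RNA it gave -0.16, 0.28 and -0.07, and none of these values passed with all libraries. Without wounded total replicate 1, wounding in total RNA passed for Sec61b (0.37, adjusted p = 0.0124) and Sec61g (0.73, adjusted p = 4.03e-04). Sec61a1 passed there in 0 of 20 alternatives.

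Sec62 and Sec63, the channel partners used by proteins that enter after synthesis and by weak signal sequences, shared a pattern in which unwounded total RNA was the low group. Sec62 stood at 31.7, 38.8 and 44.0 CPM in unwounded total, 51.3, 59.6 and 72.0 in unwounded cortical, 57.1, 107 and 116 in wounded total, and 67.5, 64.6 and 75.5 CPM in wounded cortical libraries. It was higher in cortical RNA of unwounded cells by 0.67 ± 0.21 (adjusted p = 0.038) and rose on wounding in total RNA by 1.29 ± 0.21 (adjusted p = 5.68e-04), the largest change of the 49 genes in any contrast. The cortical call for Sec62 held in 13 of 20 alternatives, and the wound call in all 20. Sec63 gave 0.67 ± 0.14 (adjusted p = 0.0037) and 0.79 ± 0.14 (adjusted p = 9.56e-04) in the same contrasts. Its libraries were at 25.4, 25.1 and 34.9 CPM in unwounded total and between 42.8 and 56.5 CPM in all other groups, without overlap. In wounded cells the cortical-to-total values were -0.43 for Sec62 and 0.13 for Sec63, and neither passed with all libraries. Sec62 was lower in that contrast without wounded total replicate 1. Tram1, which helps signal sequences and membrane segments leave the channel, passed in no contrast (0.04 to 0.27 in the 4 group contrasts).

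Whether the cortical-to-total difference itself changed with wounding was tested as an interaction, and 0 of the 49 genes passed in the edgeR test, where 0.125% of all genes did, 0.0221% higher and 0.103% lower. The 3 with an unadjusted p under 0.05 were Sec62 (-1.10 ± 0.29, adjusted p = 0.275), Sec63 (-0.54 ± 0.19, adjusted p = 0.394) and Copb2 (-0.55 ± 0.16, adjusted p = 0.307). DESeq2 called 1 gene, Sec62, and 0.531% of all genes. Without wounded total replicate 1 the edgeR test called 3, with 2.93% of all genes passing (1.06% higher, 1.88% lower): Sec62 (-1.35, adjusted p = 1.68e-04), Sec61g (-0.80, adjusted p = 0.0214) and Tmed2 (1.13, adjusted p = 0.00194). In these 3 genes that library lay away from the other wounded total libraries: Sec62 was at 57.1 against 107 and 116 CPM, Sec61g at 288 against 499 and 611, and Tmed2 at 57.0 against 28.0 and 23.4.

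**Figure D3:**
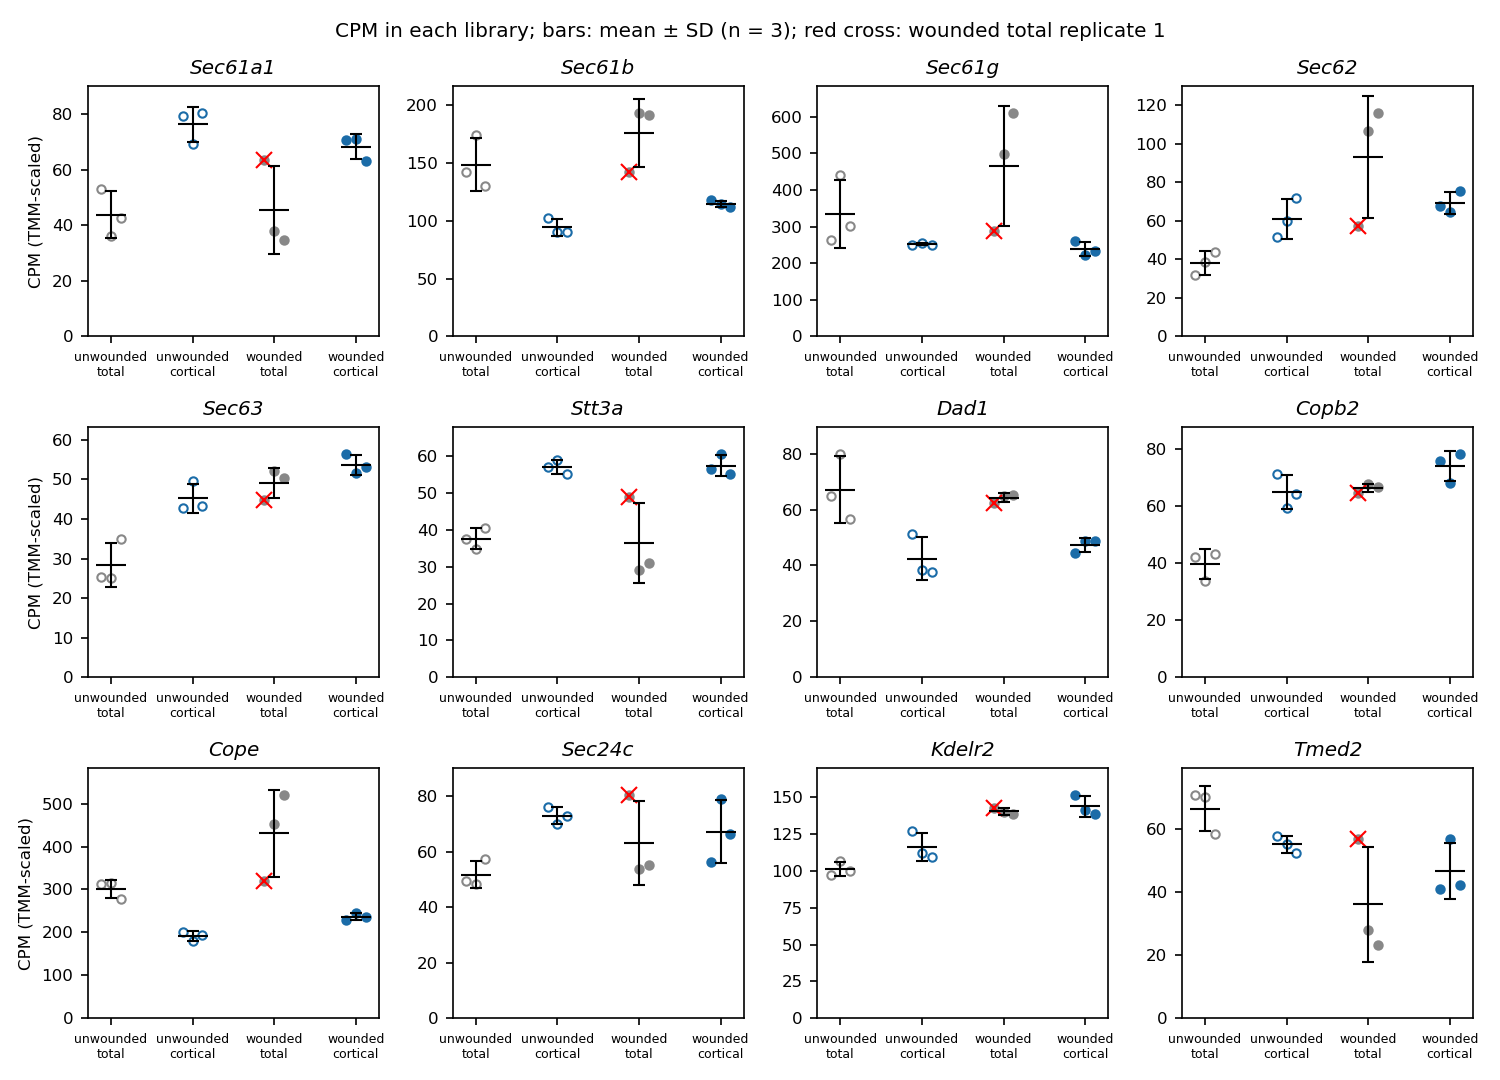
CPM (TMM-scaled, axis from 0) of 12 of the 49 genes in each of the 12 libraries; grey points are total and blue points cortical libraries, open before and filled after wounding, with bars for the mean ± SD (n = 3) and a red cross on wounded total replicate 1. Sec61a1 and Stt3a lie higher in cortical RNA, Sec61b, Dad1 and Cope lower, and unwounded total is the low group for Sec62, Sec63 and Copb2.

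Of the 4 TRAP genes, whose products sit beside the channel and help some signal sequences to insert, Ssr2 was lower in cortical RNA in both conditions. It stood at 191, 204 and 185 CPM in unwounded total and 128, 114 and 146 CPM in unwounded cortical libraries, a log2 fold change of -0.58 ± 0.12 (adjusted p = 0.00514). In wounded cells it gave -0.53 ± 0.12 (adjusted p = 0.00841), and both calls held in all 20 alternatives. Ssr4 gave -0.37 and -0.34 and Ssr3 0.29 and 0.12 in the same contrasts, so the values of this small complex lay on both sides of 0. None of these 4 passed with all libraries. Without wounded total replicate 1, Ssr4 was lower in both contrasts and Ssr3 higher in unwounded cells. Ssr1, the subunit that spans the membrane with a lumenal domain, fell on wounding in total RNA from 80.2, 81.5 and 78.2 CPM to 62.4, 56.3 and 59.5 CPM, by 0.43 on the log2 scale (SE 0.11, adjusted p = 0.0129). In cortical RNA it gave -0.33 ± 0.11 (adjusted p = 0.109). The other 3 TRAP genes gave -0.08 to -0.01 on wounding in total RNA.

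Among the 5 signal peptidase genes, Spcs2, a subunit that is not catalytic, was the one that changed. Its counts were 132, 131 and 128 CPM in unwounded total, 100.3, 97.2 and 92.7 in unwounded cortical, 79.9, 103 and 93.7 in wounded total and 73.4, 65.0 and 85.5 CPM in wounded cortical libraries. It was lower in unwounded cortical RNA (-0.43 ± 0.11, adjusted p = 0.0179) and lower after wounding in total RNA (-0.50 ± 0.11, adjusted p = 0.00719). The wound call held in all 20 alternatives, and cortical RNA gave -0.37 ± 0.12 (adjusted p = 0.094). Spcs2 overlaps Xrra1 on the other strand, and the libraries do not keep strand, so reads of the 2 genes cannot be told apart there. The same limit holds for other called genes that overlap a gene on the other strand: Sec61a1, Sec62, Sec63, Copb2, Sec24c, Ssr2, Srp9, Tmed10 and Rpn1. The catalytic paralogs Sec11a and Sec11c gave 0.30 and 0.30 on wounding in total RNA and missed the threshold (adjusted p = 0.0519 and 0.0951). Without wounded total replicate 1 they gave 0.31 and 0.37 and passed. Spcs1 and Spcs3 passed in no contrast.

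The oligosaccharyltransferase split in the same way as the channel. Stt3a and Stt3b are alternative catalytic subunits, the first serving proteins as they enter the channel and the second sites that were skipped. Stt3a was at 37.6, 34.8 and 40.6 CPM in unwounded total and 57.1, 58.9 and 55.2 CPM in unwounded cortical libraries, without overlap, a log2 fold change of 0.60 ± 0.16 (adjusted p = 0.0157). In wounded cells it was higher in cortical RNA by 0.66 ± 0.16 (adjusted p = 0.00979), or 0.93 without wounded total replicate 1, where it stood at 48.9 CPM beside 29.2 and 31.1. Stt3b gave 0.23 and 0.09 in these contrasts and did not pass. It rose on wounding in total RNA, from 58.5, 67.7 and 67.3 to 81.0, 90.5 and 93.2 CPM (0.45 ± 0.11, adjusted p = 0.00828), where Stt3a gave -0.05. In cortical RNA wounding gave 0.31 for Stt3b and 0.01 for Stt3a. Whether the paralogs differ from each other was not tested. Dad1, a very small subunit needed for complex stability, was lower in cortical RNA, at 65.0, 79.9 and 56.6 against 51.2, 38.4 and 37.5 CPM in unwounded cells (-0.66 ± 0.14, adjusted p = 0.00483) and -0.44 ± 0.14 in wounded cells (adjusted p = 0.0402). The first call held in all 20 alternatives and the second in 13. Rpn1, the ribophorin that presents substrates, rose on wounding in total RNA by 0.35 ± 0.10 (adjusted p = 0.0248). Ddost was lower in wounded cortical RNA (-0.29 ± 0.09, adjusted p = 0.0375), a call that held in 6 of 20 alternatives.

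The lectin chaperones Canx and Calr, membrane-bound and soluble calcium-binding proteins that retain monoglucosylated glycoproteins, passed in none of the contrasts with all libraries. Calr stood at 236, 225 and 292 CPM in unwounded total, 259, 268 and 251 in unwounded cortical, 231, 213 and 182 in wounded total and 217, 216 and 226 CPM in wounded cortical libraries. Canx stood between 104 and 118 CPM in unwounded and wounded cortical libraries and in unwounded total ones, and at 107, 90.9 and 81.5 CPM in wounded total. Their cortical-to-total log2 fold changes were 0.05 and -0.08 in unwounded cells and 0.08 and 0.22 in wounded cells. On wounding in total RNA they gave -0.27 and -0.28, with adjusted p = 0.133 and 0.0753. Without wounded total replicate 1 both were lower, Canx at -0.39 (adjusted p = 0.00347) and Calr at -0.35 (adjusted p = 0.0169). In that fit Canx was also higher in wounded cortical than in wounded total RNA (0.32, adjusted p = 0.0142). In cortical RNA wounding gave -0.24 for Calr and 0.02 for Canx.

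The 8 COPII genes gave 1 higher and 1 lower gene in unwounded cortical RNA, where 6.62% of all genes were higher and 7.59% lower. Sec24c, whose product selects cargo, was at 49.3, 48.3 and 57.1 CPM in total and 75.9, 69.7 and 72.8 CPM in cortical libraries (0.50 ± 0.15, adjusted p = 0.0388, or 0.055 with the replicate number as a block). Sec13, a beta-propeller protein of the outer cage, was at 296, 321 and 324 against 229, 240 and 229 CPM (-0.43 ± 0.10, adjusted p = 0.00915). Sec13 was lower in cortical RNA of wounded cells too (-0.42 ± 0.10, adjusted p = 0.0117), where Sec24c gave 0.09. Sec31a, the partner of Sec13 in the cage, gave 0.38 and 0.14 and missed the threshold with all libraries. Without wounded total replicate 1, Sec31a was higher in cortical RNA in both conditions. The call of Sec24c held in 11 of 20 alternatives, and that of Sec13 in unwounded cells in 19 of 20. The other Sec24 paralogs gave 0.29 (Sec24a), 0.13 (Sec24b) and 0.63 (Sec24d) in unwounded and -0.06, 0.28 and 0.73 in wounded cells. None was past the threshold with all libraries, and Sec24d passed in wounded cells without wounded total replicate 1 (0.93, adjusted p = 0.034). Sec24d had between 4.27 and 10.5 CPM per library and the largest SE of the paralogs, 0.30. Wounding changed 0 of the 8 in the edgeR test on all libraries, where 15.6% of all genes passed in total and 2.48% in cortical RNA. Without wounded total replicate 1 it changed Sec13 alone (0.26, adjusted p = 0.0327) in total RNA, where 24.9% of all genes passed. The total RNA values of the Sec24 genes were 0.04 (Sec24a), 0.20 (Sec24b), 0.29 (Sec24c) and 0.01 (Sec24d), and the cortical values -0.30, 0.35, -0.12 and 0.11. In total RNA the 8 genes summed to 526 ± 22.0 CPM before and 604 ± 8.82 CPM after wounding (SD, n = 3). Sec13 makes up much of this sum, with means of 313 CPM before and 355 CPM after wounding.

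The COPI coat showed opposite cortical differences in Copb2 and Cope, the beta-prime and epsilon subunits of its outer layer. Copb2 was at 42.3, 33.7 and 43.2 CPM in unwounded total, 71.4, 59.4 and 64.2 in unwounded cortical, 64.9, 67.7 and 66.7 in wounded total and 75.8, 68.2 and 78.4 CPM in wounded cortical libraries. As for Sec63, unwounded total RNA was the low group and overlapped no other. The log2 fold changes were 0.71 ± 0.12 for cortical against total RNA of unwounded cells (adjusted p = 9.61e-04) and 0.74 ± 0.12 for wounding in total RNA (adjusted p = 5.00e-04). Cope was at 313, 314 and 277 CPM in unwounded total and 201, 179 and 194 CPM in unwounded cortical libraries (-0.65 ± 0.14, adjusted p = 0.00483). After wounding it stood at 320, 452 and 520 CPM in total and 229, 246 and 235 CPM in cortical libraries (-0.87 ± 0.14, adjusted p = 9.17e-04). Its cortical calls held in all 20 alternatives. Cope also rose on wounding in total RNA by 0.52 ± 0.14 (adjusted p = 0.0184), in 16 of 20 alternatives, and by 0.69 without wounded total replicate 1. The other 4 COPI genes (Copa, Copb1, Copg1 and Arcn1) passed in no contrast with all libraries. Without wounded total replicate 1, Copb1 was lower after wounding in total RNA (-0.56, adjusted p = 0.00423), and Copb1 and Copg1 were higher in wounded cortical than total RNA (0.52 and 0.44). Summed over the 6 genes, COPI transcripts were at 608, 584 and 570 CPM in unwounded total and at 679, 760 and 817 CPM in wounded total libraries, and at 512, 487 and 511 CPM in unwounded cortical and 599.9, 611 and 575 CPM in wounded cortical libraries. Cope makes up much of these sums, with means of 301 CPM in unwounded and 431 CPM in wounded total RNA. Without Cope, the other 5 genes summed to 295, 269.9 and 293 CPM in unwounded total and 358, 308 and 297 CPM in wounded total libraries, with the highest in wounded total replicate 1. In cortical RNA they summed to 311, 308 and 317 CPM in unwounded and 371, 365 and 340.3 CPM in wounded libraries.

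Of the 6 cargo receptors, Tmed10 was lower in unwounded cortical RNA, at 110, 115 and 97.4 CPM in total and 89.6, 75.4 and 75.6 CPM in cortical libraries (-0.42 ± 0.11, adjusted p = 0.0152). Tmed2, its partner in p24 heteromers, fell on wounding in total RNA, by 0.88 on the log2 scale (SE 0.24, adjusted p = 0.0182). Its libraries were at 70.9, 70.4 and 58.4 CPM before and 57.0, 28.0 and 23.4 CPM after wounding, and without replicate 1 the log2 fold change was -1.37. The Tmed2 call held in 14 of 20 alternatives and that of Tmed10 in 15. The KDEL receptors, which return escaped ER chaperones from the Golgi, gave 0.17 (Kdelr1) and 0.20 (Kdelr2) for cortical against total RNA in unwounded cells, and 0.01 and 0.03 in wounded cells. Kdelr2 rose on wounding in total RNA from 97.1, 107 and 100.1 to 143, 140 and 138 CPM (0.47 ± 0.09, adjusted p = 0.00316), in all 20 alternatives. Kdelr1, at 143, 150 and 131 before and 165, 176 and 172 CPM after, gave 0.28 ± 0.09 and missed the threshold (adjusted p = 0.0536). Without wounded total replicate 1 it gave 0.30 and passed (adjusted p = 0.0165). In cortical RNA wounding gave 0.30 ± 0.09 for Kdelr2 (adjusted p = 0.0969) and 0.11 for Kdelr1. Tmed9 and Lman1, the mannose-binding receptor of glycoproteins, passed in no contrast with all libraries. Without wounded total replicate 1, Tmed9 was lower in cortical RNA in both conditions.

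The direction of the called cortical differences went with coding length in unwounded cells when all libraries were used. All 10 genes lower in unwounded cortical RNA had a coding sequence under 1000 bases, as 23 of the 49 do, and all 6 higher genes had 1000 bases or more, as 26 do. Among all 11480 protein-coding genes with a coding length, of those under 1000 bases 21% were lower and 1.46% higher, and of those of 1000 or more 2.22% were lower and 10.8% higher. In wounded cells the 23 shorter members gave 7 lower and 0 higher genes, and the 26 longer ones 2 higher and 1 lower (Ddost, 1323 bases), beside 21.8% lower and 1.83% higher, and 2.18% lower and 12.3% higher, of all genes. Without wounded total replicate 1, 22.4% of all genes passed in unwounded and 24.7% in wounded cells. Shares of all genes by coding length were not computed for that fit. The shorter members then gave 13 lower and 1 higher (Ssr3), and the longer ones 7 higher and 1 lower (Ddost), in unwounded cells. In wounded cells the shorter ones gave 11 lower and 1 higher (Tmed2), and the longer ones 8 higher and 4 lower (Srp68, Srp72, Sec62 and Ddost). Across the 49 genes, Spearman's rho between coding length and the cortical log2 fold change was 0.643 in unwounded and 0.582 in wounded cells, beside 0.477 and 0.476 over all protein-coding genes. These points share libraries and are given as a description. The median log2 fold change in unwounded cells of the 13 members under 600 bases was -0.41 and that of the 9 members of 2500 or more was 0.29, beside -0.38 and 0.31 for all genes of those lengths. Of the 13 shortest, 6 were lower, beside 27.3% of all genes of that length. Between these classes the members' and all genes' medians were -0.26 and -0.18 from 600 bases up to 1000, 0.13 and 0.00 from 1000 up to 1500, and 0.06 and 0.13 from 1500 up to 2500. In wounded cells the members of 2500 bases or more had a median of 0.16, beside 0.36 for all genes of that length. Members outside the medians of their length class included Sec61a1 and Sec62, at 0.80 and 0.67 among genes of 1000 bases up to 1500 with a median of 0.00, and Cope and Sec13, at -0.65 and -0.43 among genes of 600 bases up to 1000 with a median of -0.18. On wounding in total RNA, rho was 0.256 for the 49 genes and -0.04 for all genes. A trend on the gene length that the authors used was also removed from each library. It is not the coding length (5541 against 258 bases for Srp9), and a trend on coding length was not removed. With the gene length trend removed, 16 members passed in unwounded cells (6 higher, 10 lower), where 10.6% of all genes did (5.39% higher, 5.24% lower). In wounded cells 11 passed (0 higher, 11 lower), where 10.8% of all genes did (2.69% higher, 8.06% lower). The calls lost in unwounded cells were Srp14 (-0.25, adjusted p = 0.175), Stt3a (0.45, adjusted p = 0.0682) and Sec24c (0.41, adjusted p = 0.112), and Arcn1, Kdelr1 and Kdelr2 were gained. Those lost in wounded cells were Sec61a1 (0.39, adjusted p = 0.203), Stt3a (0.40, adjusted p = 0.103) and Ddost (-0.21, adjusted p = 0.199), and Srp72, Ssr4, Spcs2 and Tmed9 were gained. For wounding in total RNA 19 passed (18 higher, 1 lower), where 19% of all genes did (14.1% higher, 4.89% lower), and Ssr1 (-0.28, adjusted p = 0.0712) and Tmed2 (-0.75, adjusted p = 0.0572) were lost. Length was not tested as a cause of these differences.

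**Figure D4:**
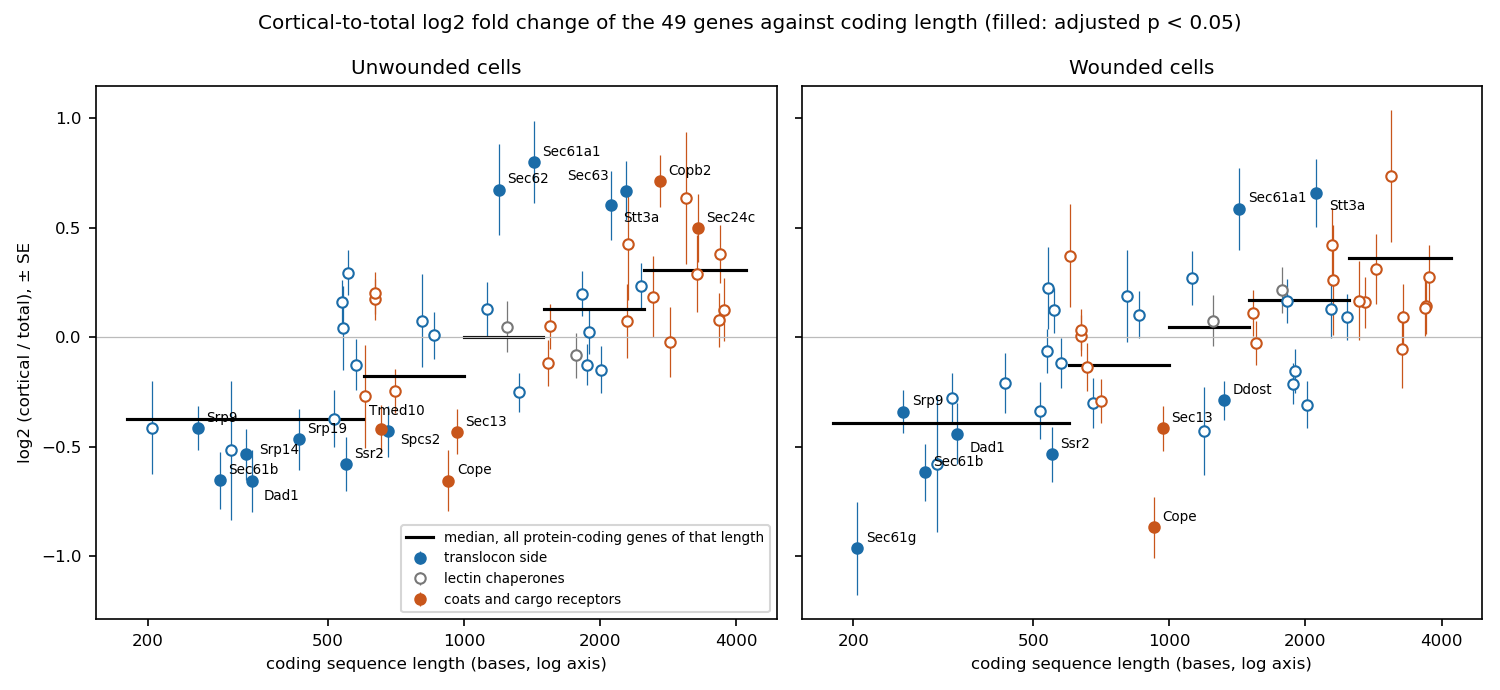
Cortical-to-total log2 fold change (y axis, ± SE) of the 49 genes against coding length in bases (log axis) in unwounded (left) and wounded cells (right); filled points passed at an adjusted p under 0.05 and are named, colours mark the translocon side, lectin chaperones and coats with cargo receptors, and black bars are medians of all protein-coding genes of that length. Named points under 1000 bases lie below 0 in both panels, and the bars climb from -0.38 to 0.31 in unwounded cells.

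Compared by side of the pathway, the 27 translocon genes (SRP to oligosaccharyltransferase) had 4 higher and 7 lower in unwounded cortical RNA and 2 higher and 6 lower in wounded cortical RNA. The 20 coat and cargo receptor genes had 2 higher and 3 lower, and 0 higher and 2 lower. Of all genes tested, 6.62% were higher and 7.59% lower in unwounded cells, and 7.62% higher and 8.03% lower in wounded cells. On wounding in total RNA 6 translocon genes rose and 2 fell, and 3 coat genes rose and 1 fell. Of all genes tested, 8.39% rose and 7.2% fell there. The medians of the translocon and coat genes were 0.04 and 0.15, beside -0.03 for all genes. Summed over the 20 coat genes, total RNA stood at 1867, 1901 and 1857 CPM before and 2088, 2175 and 2221 CPM after wounding, so the groups did not overlap. A few genes weigh heavily in this sum: means before and after were 301 and 431 CPM for Cope, and 313 and 355 CPM for Sec13. The translocon sum stood at 3168, 3537 and 3149 CPM before and 3193, 3786 and 3862 CPM after, and overlapped. That overlap came from wounded total replicate 1 (3193 CPM), and the other wounded total libraries lay above all unwounded total ones. Of the 19 cytosolic subunits of SRP and the coats 2 were higher and 5 lower in unwounded cortical RNA, and of the 30 members in the membrane or lumen 4 were higher and 5 lower. Whether these classes differ was not tested.

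Promoter windows from 250 bases before to 50 after the start site (RefSeq, GRCm38.p6) were found for 38 of the 49 genes. They were searched on both strands for elements of the unfolded protein response, which raises many ER genes when the ER is loaded: ERSE (CCAAT, 9 bases of any kind, CCACG), its part CCACG, and the UPRE core (TGACGTGG), which holds CCACG on its other strand. ERSE was in 2 of the 38 genes (5.26%), Canx and Calr, and in 0.137% of the 27025 genes with a window. Those 27025 were not limited to the genes tested here, and the share among the genes tested was not computed. CCACG was in 26 (68.4%), against 35.5% of all, and the UPRE core in 4 (10.5%), against 0.714%. The windows of the lectin chaperones are shown for 120 bases, and those of the COPI and COPII genes with the UPRE core for 30 bases, 5′ to 3′ on the strand of the gene with the motif in capitals.
Canx (chr11:50325750-50325869, minus strand): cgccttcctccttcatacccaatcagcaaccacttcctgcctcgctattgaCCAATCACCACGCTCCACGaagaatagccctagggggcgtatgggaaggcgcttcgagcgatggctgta
Calr (chr8:84847025-84847144, minus strand): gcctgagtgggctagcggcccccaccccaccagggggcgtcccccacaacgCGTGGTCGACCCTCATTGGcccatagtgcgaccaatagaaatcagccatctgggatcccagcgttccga
Sec23a (chr12:59011993-59012022, minus strand): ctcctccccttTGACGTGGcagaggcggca
Sec24d (chr3:123267459-123267488, plus strand): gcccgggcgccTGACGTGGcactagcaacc
Copb1 (chr7:114254690-114254719, minus strand): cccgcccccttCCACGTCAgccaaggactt
Copb2 (chr9:98563713-98563742, plus strand): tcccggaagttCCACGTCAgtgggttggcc
In Calr, Copb1 and Copb2 the motif reads on the strand opposite to the gene. Of these 6 genes Copb2 alone passed in a contrast with all 12 libraries, and the others gave -0.35 (Copb1) to 0.01 (Sec24d) on wounding in total RNA. A match to these letters is a description of the window, and binding of a factor was not measured.

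Other genes of the same pathway were read from a wider list of 74 genes that are not among the 49, of which 73 were tested. In unwounded cortical RNA 7 were higher and 7 lower, with Sec16a (the scaffold of ER exit sites) at 0.90, Copg2 (the paralog of Copg1) at 0.69 and Mogs (glucosidase I) at 0.56, and with Emc2 (ER membrane complex) at -0.63, Tmed1 at -0.62 and Mcfd2 (the partner of Lman1) at -0.61. In wounded cortical RNA 4 were higher and 7 lower, led by Sec16a at 0.58, Ganab (glucosidase II) at 0.51 and Gbf1 (which activates Arf1 for COPI) at 0.47, and by Bet1 (a SNARE) at -0.88, Emc2 at -0.76 and Copz1 (COPI zeta) at -0.56. On wounding in total RNA 11 rose and 7 fell. Prkcsh (the beta subunit of glucosidase II) rose by 0.96, Bet1 by 0.80 and Ergic3 by 0.62, and Tmed5, Emc4 and Tmed1 gave -0.75, -0.64 and -0.56. In cortical RNA wounding changed 1 gene, Tmed5, at -0.77. Its libraries were at 51.5, 48.5 and 61.2 CPM before and 33.9, 30.3 and 30.1 CPM after. The medians of the wider list in these 4 contrasts were -0.07, -0.13, 0.02 and -0.02. Beside its counts, 6.62%, 7.62%, 8.39% and 1.6% of all genes tested were higher in these contrasts. Those lower were 7.59%, 8.03%, 7.2% and 0.884%.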

How the data were processed

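Messenger RNA of 12 libraries (4 groups of 3, named from the sample titles) was sequenced from poly-A-selected, non-directional libraries, per the labels. The authors deposited raw counts per gene and FPKM values, each with 1 column per library, per the file headers. HISAT2, CASAVA and the mm10 build are named in the submitters' processing notes; versions, the counting tool and the annotation release are not given in the sources used here. Of the 54532 gene identifiers 54409 were in GENCODE M21, 98.3% of them with the same coordinates. All sample columns were used (0 left out). Of the 49 genes, 19 overlap a gene on the other strand. Near-identical pseudogene copies may share reads of genes such as Tmed10, Spcs2 and Srp72. Reads shared with pseudogenes were not measured for any of the 49 genes.

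Counts were filtered with filterByExpr (minimum count 10), scaled with TMM and fitted in edgeR 4.0.16 (R 4.3.3) with a mean per group over all 12 libraries. The 5 contrasts were tested with the two-sided quasi-likelihood test and adjusted over 13571 genes. Alternatives were RLE factors, library size alone, no filter, DESeq2 1.42.0, only the groups compared, a replicate block, a length trend (loess, span 0.5) removed with and without the block, and leaving out each library. Same-numbered libraries did not deviate together (correlations -0.033 to 0.091), so the numbers were not used as pairs. Coding lengths are those of principal transcripts. The steps were tested on simulated data. Figures used matplotlib 3.10.9 in python 3.11.15.

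The members and lists were chosen with earlier results of these data known. Named genes were the called members, up to 6 in each direction in full, the pore subunits, Stt3 and Sec24 paralogs, lectin chaperones and KDEL receptors in every contrast, and up to 3 genes in each direction of the wider lists.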

Additional observations from a re-analysis of the deposited data

Results flagged for a closer look

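For 3 genes of the unfolded protein response list, which are not among the 49, the cortical-to-total difference differed between unwounded and wounded cells by the edgeR interaction test. Atf6b, a membrane-bound transcription factor of the ER, stood at 63.5, 66.2 and 70.5 CPM in unwounded total and 345, 333 and 349 CPM in unwounded cortical libraries, and at 70.4, 57.3 and 69.8 CPM in wounded total and 135, 140 and 143 CPM in wounded cortical libraries. Its interaction was -1.28 ± 0.14 (adjusted p = 0.00123). Atf4, the translation-regulated factor of the same response, had an interaction of -1.05 ± 0.16 (adjusted p = 0.012), and Atf6 one of -1.04 ± 0.17 (adjusted p = 0.0155). In all 3 the wounded cortical libraries lay below the unwounded cortical ones and above both total groups, and all 3 also passed without wounded total replicate 1.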

How the results depend on the processing

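Counts of members called were recomputed under 20 alternatives (19 for the interaction), in the order unwounded cortical-to-total, wounded cortical-to-total, wounding in total RNA, wounding in cortical RNA, and interaction, where the main counts were 16, 10, 12, 0 and 0. Of all genes, 14.2%, 15.7%, 15.6%, 2.48% and 0.125% passed in the main fit. Leaving out 1 library at a time gave 8 to 22, 4 to 24, 6 to 22, 0 to 7 and 0 to 3. The shares of all genes in these fits moved too. They ran from 6.69% to 22.4%, 7.66% to 24.7%, 7.99% to 24.9%, 0.767% to 9.07% and 0.0284% to 2.93%. The highest count of members came each time without wounded total replicate 1. The lowest count came without unwounded total replicate 2 in the first contrast and without wounded total replicate 2 in the second and the third. When the fit held the compared groups alone, the count was 5 for wounded cortical-to-total, with 7.66% of all genes. For wounding it was 7 in total RNA (9.25% of all genes) and 11 in cortical RNA (11.3%). DESeq2 gave 1 for wounding in cortical RNA (5.42% of all genes) and 1 for the interaction (0.531%). No filter on low counts gave 1 for the interaction (0.638%). With the length trend removed, wounding in total RNA gave 19 (19% of all genes). With the length trend removed and the replicate block, it gave 20 (18.3% of all genes), and the interaction gave 1 (Sec62, with 0.221% of all genes). The replicate block alone gave 15, 9, 11, 0 and 0, and lost Sec24c, Ddost and Srp72. Of all genes, 13.7%, 14.6%, 15%, 2.03% and 0.0737% passed with that block. No called gene changed sign in these fits. The calls that held in all 20 alternatives were 6 of 16 (Copb2, Cope, Dad1, Sec61b, Sec63, Ssr2), 4 of 10 (Cope, Sec61b, Sec61g, Ssr2) and 5 of 12. Over single genes, 134 values lost the threshold, 37 gained it and 1676 did neither; the cause was not tested. The members with the lowest mean CPM, Sec24d, Spcs1 and Sec23b, had SE of 0.30, 0.32 and 0.26 in the first contrast, the largest of the 49.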

Other observations

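Beyond the 49 genes, the unfolded protein response list held 21 genes. In unwounded cortical RNA 4 of them were higher and 2 lower, beside 6.62% and 7.59% of all genes tested. In wounded cortical RNA 5 were higher and 0 lower, beside 7.62% and 8.03% of all genes tested. The higher genes were led by the ER stress transducers Atf6b at 2.36 and Atf6 at 1.81 and by Atf4 at 1.49 in unwounded cells, and in wounded cells by Atf6b at 1.08, Atf6 at 0.78 and Atf4 at 0.43. The lower ones were the small lumenal proteins Sdf2l1 at -0.87 and Manf at -0.72. On wounding, Atf6b (-1.30), Atf4 (-1.17) and Atf6 (-0.66) fell in cortical RNA, where 0.884% of all genes tested fell. Total RNA gave 2 higher and 3 lower, beside 8.39% and 7.2% of all genes tested. The lower ones were Sdf2l1 at -0.74, Manf at -0.68 and Hyou1 at -0.39, and the highest value of the list there was 0.87. Hspa5, the major ER chaperone of the Hsp70 family, passed in no contrast, with 78.9 ± 7.65 CPM in unwounded total, 102 ± 9.99 in unwounded cortical, 69.0 ± 15.0 in wounded total and 91.1 ± 9.02 CPM in wounded cortical RNA (SD, n = 3).

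By mean CPM, unwounded total was the lowest of the 4 groups for 19 of the 49 genes and wounded cortical for 5, and wounded cortical was the highest for 17. These counts are a description of the group means.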
